A study of Mus musculus with 16 samples.

Results

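The change between 3 and 7 days of culture was measured in wild-type cells of the mouse coronal suture. The members are the 8 wild-type arrays of a series of 16, namely 4 arrays at 7 days and 4 at 3 days, chosen by the genotype and day on their labels and paired by culture and medium. All cells were of C57BL6 background and grew in Dulbecco's Modified Eagle Medium with serum, antibiotics and an antifungal agent. The wild-type cells came as 1 female and 1 male culture, each kept in control medium or with thyroxine, a thyroid hormone, at a log10 concentration of -6 (in mol per liter). The 4 pairs were therefore female control, female thyroxine, male control and male thyroxine. The other 8 arrays held 1 female and 1 male culture of Twist1+/- cells, which carry 1 mutant copy of the transcription factor gene Twist1, under the same media and times. Cells of all groups came from 2 litters of mixed genotype, each condition had 3 wells, and each array received the labelled product of 100 ng RNA. Since there was 1 culture for each sex, sex and culture cannot be told apart, and p-values measured the spread between pairs, which may be technical in part.

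The coronal suture joins the frontal bones to the parietal bones by fibrous tissue, and its mesenchymal cells supply the osteoblasts of the growing bone fronts. In a dish such cells attach, build actin stress fibres, divide and lay down matrix, and dense cultures slow their division. Suture tissue also contains macrophages, which divide in response to the growth factor Csf1 made by stromal cells, so calvarial cultures are a known source of macrophages beside the stromal cells.

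Of 12 suture and osteoprogenitor markers measured, 11 were above the intensity filter on these arrays, among them Twist1, Msx2, Prrx1, En1 and Six2, and Gli1 was below it. Of 15 osteoblast markers, 8 were below the filter, including the late markers Sp7, Bglap, Ibsp, Phex, Dmp1 and Mepe. Of 20 macrophage and osteoclast markers, 18 were above it, and of 10 lymphocyte and granulocyte markers 8 were below it. All values are log2 expression values after RMA, a method that sets every array to the same distribution, and 13453 genes were tested. The mean level of the 18 macrophage and osteoclast genes was 8.06 and 7.97 on the female arrays at 3 days and 9.20 and 9.22 at 7 days (control and thyroxine medium). On the male arrays it was 9.11 and 9.05 at 3 days and 9.32 and 9.09 at 7 days. The male culture thus carried at 3 days nearly the macrophage gene level that the female culture had at 7 days. In bulk RNA, fewer cells of a type and less RNA per cell cannot be told apart.

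Over all 4 pairs, 20 genes rose and 36 fell between 3 and 7 days. Among those that rose were genes expressed in macrophages (Wfdc17, Ccl6, Ccl8, Clec4n), lysosomal enzymes (Hexa, Naglu), the collagenase Mmp13 and the matrix proteoglycan Aspn. Of the 18 macrophage and osteoclast markers 0 passed over the 4 pairs, although 10 were higher in 4 of 4 pairs. Of 12 complement genes 0 passed, and of 22 macrophage surface receptors 1 did (Clec4n). Among those that fell were smooth muscle and actin-linked genes (Cnn1, Actg2, Flnc, Ankrd1), the citrate and phosphate transporters Slc13a5 and Slc20a1, the sterol enzyme Hsd17b7 and the suture transcription factor Msx2. The 56 genes were 0.416% of those tested at an adjusted p under 0.05 in limma with the pair as a block, with 0.149% higher and 0.268% lower, and the smallest adjusted p was 0.0181. The 56 were chosen by a paired test on these same arrays, so their shared signs and separate days follow in part from that choice. All 56 had the same sign in 4 of 4 pairs, where 10.2% of all genes were higher and 13.5% lower in every pair. In 24 of the 56 the 4 arrays at 7 days did not overlap the 4 at 3 days, against 5.48% of all genes. This count rested on few pairs: without the female control, female thyroxine or male control pair 0 genes passed (1311, 1381 and 1910 at an unadjusted p under 0.05), and without the male thyroxine pair 445 did. The 4 pairs come from 2 cultures, and with the culture as a random block (correlation 0.309) 0 genes passed in limma, with 1925 at an unadjusted p under 0.05. Without the variance trend 1 gene passed (2160 unadjusted), and without the pairing in the fit 0 did (1305).

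**Figure D1:**
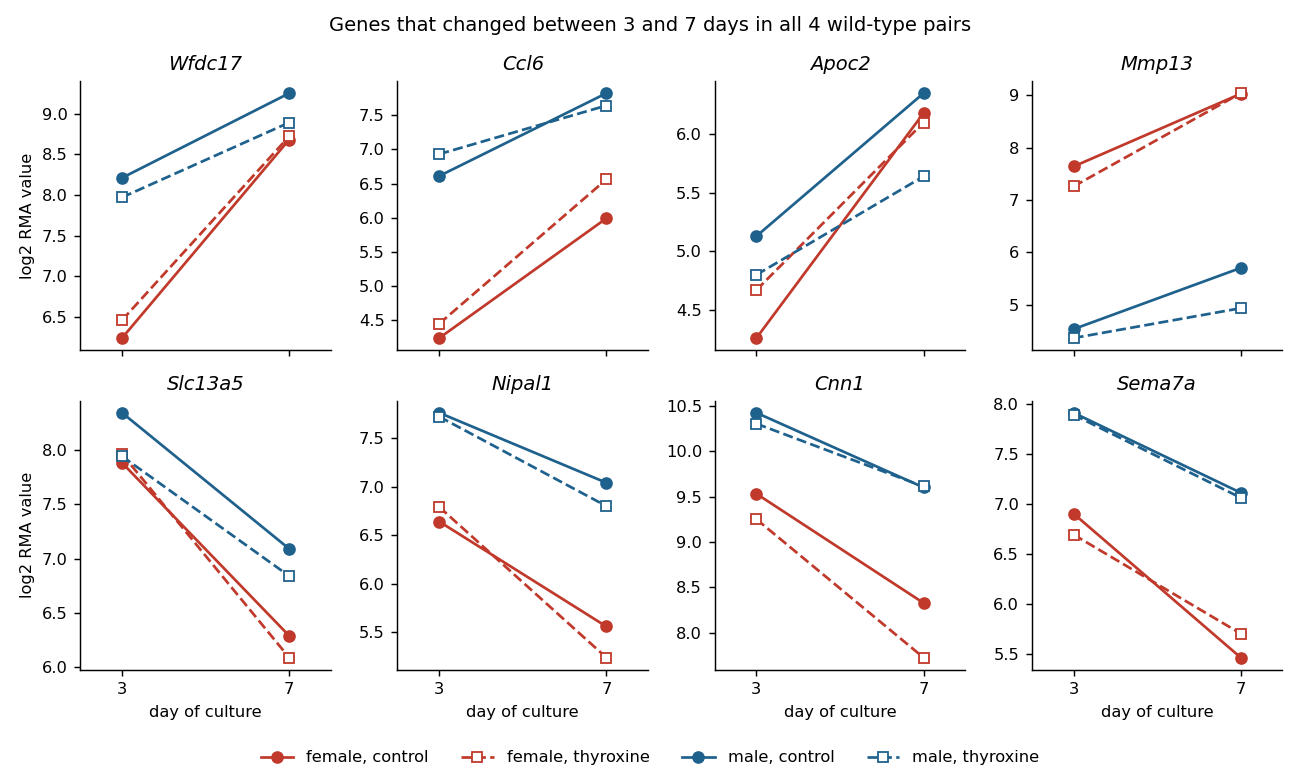
Log2 RMA value (vertical axis, a separate range per panel) at 3 and 7 days of culture (horizontal axis) for the 4 genes that rose most and the 4 that fell most among the 56 called over the wild-type pairs; each line joins the 2 arrays of a pair, red for the female and blue for the male culture, filled circles for control medium and open squares for thyroxine. All lines of Wfdc17, Ccl6, Apoc2 and Mmp13 go up and all lines of Slc13a5, Nipal1, Cnn1 and Sema7a go down. The cultures start from different levels except for Slc13a5, where they overlap at 3 days.

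Of the genes called over the 4 pairs, Wfdc17, which encodes a small secreted protein of activated macrophages, had the largest rise. At 3 days its values were 6.24 and 6.46 in the female culture and 8.21 and 7.97 in the male culture (control, then thyroxine), and at 7 days they were 8.68, 8.72, 9.25 and 8.89 in the same order. All 4 arrays at 7 days lay above all 4 at 3 days, and the female culture started lower and climbed further. The mean rise was 1.665 ± 0.25 (SE, 4 pairs; adjusted p = 0.039), a 3.17-fold higher level. Ccl6, a chemokine of myeloid cells, went from 4.24, 4.45, 6.61 and 6.93 to 5.99, 6.56, 7.82 and 7.64. The days overlapped across cultures, since the male culture at 3 days stood above the female culture at 7 days, but each pair rose, by 0.71 to 2.11. Clec4n, the receptor dectin-2 of macrophages and dendritic cells, was more even: 5.02, 5.27, 5.15 and 4.81 at 3 days and 6.38, 6.32, 6.30 and 5.98 at 7 days. Its rise of 1.18 ± 0.11 (SE; adjusted p = 0.0181) was nearly the same in each pair, between 1.05 and 1.17 in 3 of them and 1.36 in the female control pair. Ccl8, another chemokine, rose by 0.85, and Rgs1, a regulator of G protein signals in leukocytes, by 0.765. Pycard, the adaptor of inflammasomes, rose by 0.61, and its 4 values at 7 days lay above those at 3 days.

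Several genes that rose belong to lipid and lysosome function. Apoc2, the apolipoprotein that activates lipoprotein lipase, was at 4.26, 4.67, 5.13 and 4.80 at 3 days, then at 6.18, 6.10, 6.35 and 5.64 at 7 days. The days did not overlap, and the mean rise was 1.35 ± 0.17 (SE; adjusted p = 0.0293), or 2.55-fold. Hexa, a subunit of the lysosomal enzyme beta-hexosaminidase, was at 9.87, 9.87, 9.85 and 10.02 at 3 days, then at 10.34, 10.38, 10.24 and 10.47 at 7 days. Its rise was small, at 0.455, but of like size in the 4 pairs (0.39 to 0.51). Naglu, which cleaves heparan sulfate in lysosomes, rose by 0.62, and Gpnmb, a glycoprotein of lysosome-rich macrophages and osteoblasts, by 0.545.

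Mmp13, the collagenase of bone and cartilage remodelling, was at 7.64 and 7.26 in the female culture and 4.53 and 4.36 in the male culture at 3 days. At 7 days it was at 9.03, 9.04, 5.70 and 4.93. The cultures did not share a range at either time, yet each pair rose, by 0.57 in the male thyroxine pair and by 1.17 to 1.78 in the others, with a mean of 1.23 ± 0.17 (SE; adjusted p = 0.0378). Its inhibitor Timp1 fell by 0.495 (adjusted p = 0.0378), from between 11.45 and 11.88 to between 10.87 and 11.48. These were the 2 members called of 13 tested matrix proteases and inhibitors, and the median of the 13 was 0.07. Aspn, an osteoblast-lineage proteoglycan that binds collagen, rose by 0.81 from 8.29, 8.13, 4.54 and 4.18 to 9.26, 9.22, 5.16 and 4.73. Here too the female culture was far above the male one. Stat4, a transcription factor downstream of interleukin-12, rose by 1.13. Its values at 3 days (3.10 to 3.89) all lay below the filter of 3.905, where RMA compresses differences. Of the wild-type arrays only those at 7 days (4.02 to 5.30) lay above it, so the filter favoured a rise for this gene. The kinase gene Pim1 rose by 0.78 (0.29 on its other, dimmer probe set) and the RNA-decay factor Zfp36l1 by 0.60 (0.55 on its other).

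Slc13a5, the sodium-coupled citrate transporter of the cell membrane, fell most of all genes called. At 3 days it was at 7.88, 7.96, 8.34 and 7.94 and at 7 days at 6.29, 6.09, 7.09 and 6.84. No array at 7 days reached the lowest at 3 days. It fell by 1.45 ± 0.13 (SE; adjusted p = 0.0181), which left 0.365 of the 3-day level. Slc20a1, a phosphate importer that serves mineralising cells, fell by 0.74. Slc1a6, a glutamate transporter, fell by 0.93, from 7.22, 7.34, 8.18 and 8.27 to 6.52, 6.58, 6.98 and 7.22. Nipal1, a magnesium transporter, fell by 1.07, with its 2 cultures again at separate levels.

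Genes of the contractile cytoskeleton and of cell adhesion were among those that fell. Cnn1, or calponin 1, which binds actin in smooth muscle and myofibroblasts, was at 9.53, 9.25, 10.42 and 10.30 at 3 days, then at 8.33, 7.73, 9.60 and 9.61 at 7 days. It fell by 1.06 ± 0.13 (SE; adjusted p = 0.0293), which left 0.48 of the 3-day level. In the female pairs it fell by 1.20 and 1.52 and in the male pairs it fell by 0.82 and 0.69 (adjusted p of the difference 0.00767). Actg2, smooth muscle gamma-actin, fell by 0.82, in the female pairs by 1.01 and 1.02 and in the male pairs by 0.69 and 0.57. Of 14 contractile genes tested, these were the 2 called over 4 pairs. Lower in 4 of 4 pairs were 11 of the 14, beside 13.5% of all genes. The median of the 14 was -0.39, beside -0.02 over all genes. Ankrd1, a target of mechanical signalling through YAP, fell by 0.72. Fermt2 (kindlin-2), an activator of integrins, fell by 0.79, from between 8.34 and 8.58 to between 7.29 and 8.03. Flnc, which cross-links actin, fell by 0.69. Cav1, the coat protein of caveolae, fell by 0.81, and Amot, a partner of YAP at cell junctions, by 0.79. Jph2, which couples the cell membrane to calcium stores in muscle, went from 5.89, 5.55, 5.80 and 5.84 to 4.73, 4.90, 4.74 and 4.98. Its 2 cultures stood at the same level at both times, so that the days were apart by more than the range within either day.

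Of secreted and surface proteins, Sema7a, a membrane-anchored semaphorin, fell by 1.015 ± 0.12 (SE; adjusted p = 0.0287). Its values were 6.90, 6.69, 7.91 and 7.89 at 3 days and 5.46, 5.70, 7.11 and 7.06 at 7 days. Cemip, which takes part in the breakdown of hyaluronan, fell by 0.815 in a like way in the cultures, from 10.46, 10.61, 10.15 and 10.13 to 9.52, 9.77, 9.24 and 9.56. Inhba, the activin A subunit, fell by 0.725 and was the 1 of 14 TGF-beta pathway genes called. Tnc, the matrix protein tenascin-C, fell by 0.60 and was the 1 of 22 matrix genes called. Thbd and F2r, the receptors thrombomodulin and PAR1 of the clotting enzyme thrombin, fell by 0.66 and 0.46. Ereg, an EGF-family ligand, fell by 0.815, and its other, dimmer probe set changed by -0.28. Ptx3, a soluble pattern recognition protein, fell by 0.69 and Lrrc32 (GARP), which holds latent TGF-beta at the cell surface, by 0.585. Ncam1, a cell adhesion molecule, fell by 0.725, from between 10.52 and 10.74 to between 9.80 and 10.05.

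Msx2, a homeobox factor of the skull sutures whose gain of function causes craniosynostosis, was the 1 of 11 suture markers called. It was at 6.81, 6.82, 7.15 and 7.36 at 3 days, then at 6.12, 6.04, 6.40 and 6.97 at 7 days. The male thyroxine pair fell by 0.39 and the others fell by 0.69 to 0.78. On average Msx2 fell by 0.65 ± 0.10 (SE; adjusted p = 0.0425). Twist1 did not pass over 4 pairs (-0.38), and the median of the 11 markers was -0.18. No osteoblast gene of the 7 tested passed, with a median of -0.12.

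Genes of mitosis were mostly lower at 7 days, without passing the test over the 4 pairs. Of 27 genes of the G2 and M phases, 17 were lower in 4 of 4 pairs and none was higher in all. Over all genes, 13.5% were lower and 10.2% higher in every pair. The median of the 27 was -0.26, but 0 passed over 4 pairs. The mean level of the 27 was 6.79, 6.76, 7.11 and 7.11 at 3 days and 6.53, 6.48, 6.74 and 6.93 at 7 days. Anln and Trim59, outside that list, fell by 0.615 and 0.61, and Anln encodes anillin, a scaffold of the contractile ring in dividing cells. The 25 genes of G1/S and replication had a median of -0.01. Of 14 cell cycle inhibitors 5 were higher in 4 of 4 pairs, beside 10.2% of all genes, and 0 passed.

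**Figure D2:**
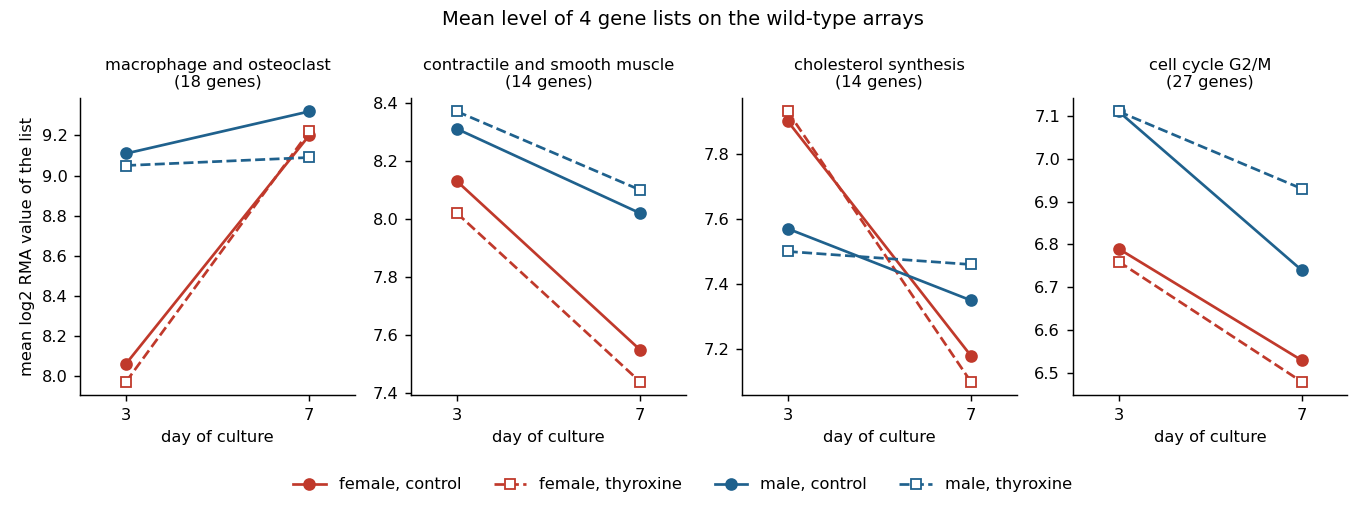
Mean log2 RMA value of a gene list (vertical axis, a separate range per panel) at 3 and 7 days (horizontal axis) on the 8 wild-type arrays, with lines, colours and markers by culture and medium as in the key. The macrophage level of the female culture climbs from 8.06 and 7.97 to 9.20 and 9.22 while that of the male culture stays between 9.05 and 9.32; the sterol level falls steeply in the female culture and little in the male.

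The cultures were then read separately, each over its control and its thyroxine pair. In the female culture 2389 genes passed (17.8%; 1022 higher, or 7.6%, and 1367 lower, or 10.2%), and in the male culture 216 (1.61%; 100 higher, or 0.743%, and 116 lower, or 0.862%). These tests rest on 2 pairs of 1 culture and speak of those cultures alone. The male count was 0 without the variance trend (limma; 1352 genes at an unadjusted p under 0.05), where all 16 genes named for that culture lost the call, 86 without the replicate block and 83 with all 16 arrays in the fit. The female count was 1165 without the trend. All 56 genes called over the 4 pairs also passed in the female and 53 in the male culture, on the same arrays, so this is no separate support. Ecrg4, St6gal1 and Gm8995 did not pass in the male. Both cultures called 111 genes with the same sign, which was 51.4% of the male and 4.65% of the female calls, and 19 with opposite signs. Of the female calls, 69.6% had the same sign in the male culture, beside 57.4% of all genes.

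The change was also larger in the female culture. A difference of at least 1 upward was seen for 305 and 306 genes in the female control and thyroxine pairs and for 41 and 26 in the male pairs. Downward, it was seen for 96 and 74 genes in the female and 39 and 30 in the male pairs. Genes are not independent replicates; across them, the 2 female pairs' differences correlated at 0.663 and the 2 male pairs' at 0.178. Between cultures the correlation was 0.322 and 0.247 for the male control pair and 0.052 for the male thyroxine pair with either female pair. The same pairs of arrays share a culture and all arrays share the normalization, so these are descriptions.

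**Figure D3:**
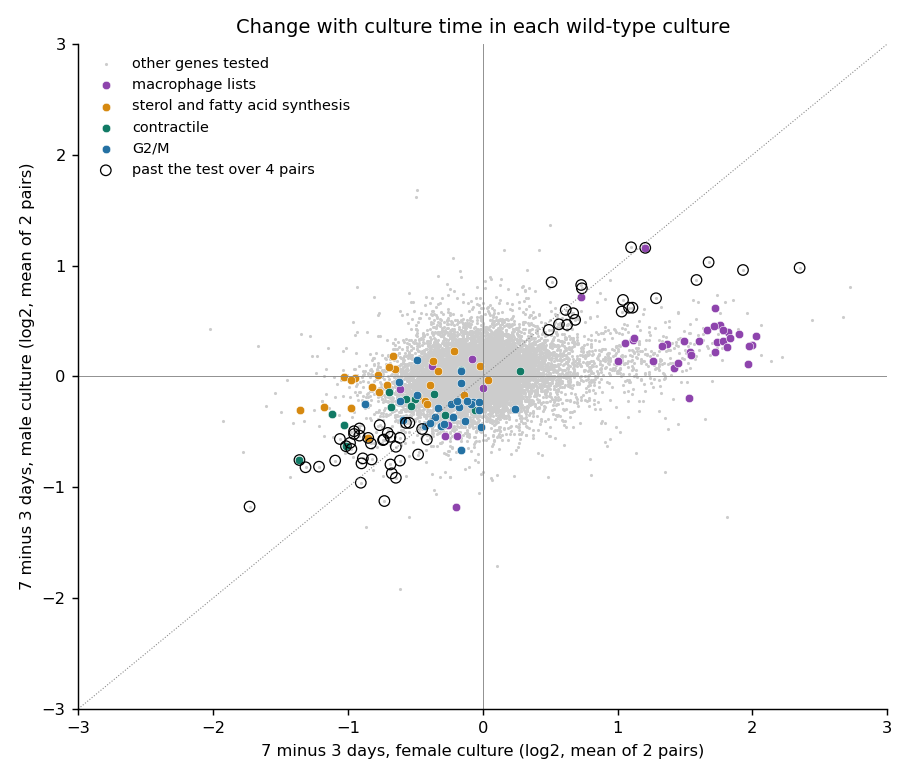
Difference between 7 and 3 days (log2) of each gene tested in the female culture (horizontal axis) and the male culture (vertical axis), each the mean of 2 pairs; colours mark gene lists, open black circles the 56 genes past the test over 4 pairs and the dotted line equal change. Most macrophage genes lie far to the right and just above 0, the sterol and fatty acid genes lie to the left near 0, and the circled genes lie in the upper right and lower left.

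Macrophage genes rose in the female culture as a group. Of the 18 macrophage and osteoclast genes, 14 rose and 1, the bone-resorbing protease gene Ctsk, fell, with a median of 1.47. In the male culture 4 rose (Lyz2, C1qa, C1qb and C1qc) and the median was 0.19. Cd68, a lysosomal membrane protein of macrophages, was at 9.46 and 9.33 in the female culture at 3 days, then at 11.43 and 11.35 at 7 days. In the male culture it was at 11.26 and 11.34 and then at 11.67 and 11.50. The female culture thus rose to the level at which the male culture began. Csf1r, the receptor for Csf1, followed the same course, from 8.81 and 8.86 to 10.26 and 10.24 in the female culture and from 10.28 and 10.38 to 10.46 and 10.36 in the male. Adgre1, a surface receptor that marks mature macrophages, rose by 1.725 in the female culture, and its difference of 0.22 in the male did not pass. Of the osteoclast genes, Acp5 and Mmp9 had estimates of -0.195 and -0.28 in the female culture and -0.54 in the male culture, and neither passed in either.

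The difference between the cultures itself was called for 14 of these 18 genes, each with the smaller change in the male culture, where 3.55% of all genes were called in that direction and 3.23% in the other. Of 22 macrophage surface receptors 18 rose in the female culture (median 1.54), among them the lectin Siglec1, the lipid receptor Trem2, the endosomal receptors Tlr7, Tlr8 and Tlr13 and the fractalkine receptor Cx3cr1, and 1, the receptor kinase Axl, fell. In the male culture Fcgr2b and Clec4n rose and the scavenger receptor Marco fell. Marco was at 6.25 and 6.00 in the male culture at 3 days, then at 4.88 and 5.01 at 7 days, and in the female culture between 4.39 and 4.89 at both times. The change of 16 receptors was smaller in the male culture by the test of the difference, counted with sign. Among 12 complement genes 7 rose in the female culture and 3 in the male, namely the chains of C1q. Of 20 cytokine and chemokine genes, 8 rose in the female culture, including Ccl3 (1.73), Ccl4 (1.50) and the stromal chemokine Cxcl12 (1.335), and 2 fell, Csf1 (-0.685) and the prostaglandin synthase Ptgs2 (-1.325). Csf1 and Ptgs2 also fell in the male culture, by 0.34 and 0.40.

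Lysosome and lipid genes rose in both cultures. Of 18 tested, 11 rose in the female culture (median 0.51) and 7 in the male (median 0.31). Higher in all 4 pairs were 11 of the 18, beside 10.2% of all genes. The cathepsin genes Ctsb and Ctsd rose by 0.525 and 0.385 in the female culture and by 0.355 and 0.31 in the male. Abcg1, which exports cholesterol from macrophages, rose by 1.595 and 0.675. Fabp4, a fatty acid carrier of adipocytes and macrophages, fell by 0.545 in the female culture and rose by 0.75 in the male (adjusted p of the difference 0.00396). Whether macrophage content has a part in the lysosomal change was not tested.

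Sterol synthesis genes fell in the female culture. Of 14 tested, 11 fell there (median -0.81) and 1 fell in the male culture (median -0.11). The change of 7 was higher in the male culture by the test of the difference, beside 3.23% of all genes. The pathway runs from acetyl-CoA through mevalonate and squalene to cholesterol, and its genes are switched on together by the factor SREBP2 when sterols are scarce. Hmgcs1, which makes the precursor of mevalonate, changed by -1.18 and -1.53 in the female pairs and by -0.39 and -0.21 in the male pairs. Cyp51, which removes a methyl group from lanosterol, changed by -1.08 and -1.28 and by -0.12 and -0.43. At the squalene step, Fdft1 and Sqle fell by 1.03 and 0.975 in the female culture, and their male estimates, -0.01 and -0.285, did not pass. Hsd17b7, a keto-steroid reductase late in the pathway, was the exception that passed over all 4 pairs. It was at 7.60, 7.59, 8.00 and 8.22 at 3 days, then at 6.76, 6.73, 7.29 and 7.82 at 7 days, and fell by 0.70 ± 0.10 (SE; adjusted p = 0.0378). Fatty acid synthesis genes followed the same split, with 7 of 10 lower in the female culture, among them Fasn (-0.825), Scd1 (-0.695) and Acly (-0.65), and 0 called in the male culture (median 0.02). The mean level of macrophage genes rose in the same female arrays, and its part in the sterol change was not tested.

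**Figure D4:**
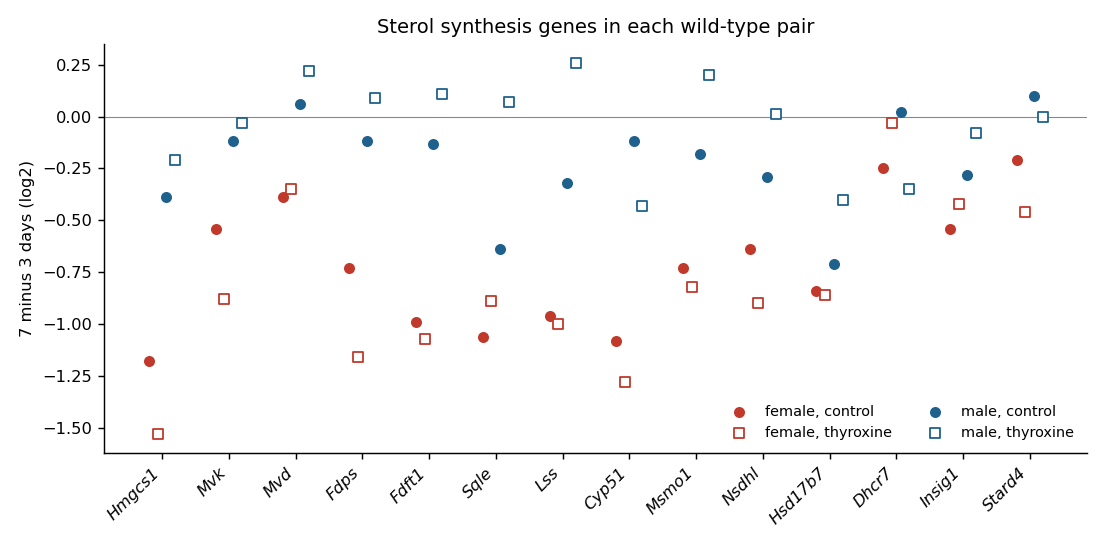
Difference between 7 and 3 days (log2, vertical axis) of the 14 sterol synthesis genes tested, roughly in pathway order (horizontal axis), in each wild-type pair, with colours and markers by culture and medium. All female points lie below 0, down to -1.53 for Hmgcs1, while most male points lie around 0 and those of Hsd17b7 lie below it in both cultures.

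The promoters of 3 of the 4 sterol genes with the smallest p over the 4 pairs are shown, so that the box most of the group shares can be seen. Each sequence is the 250 bases before the start site, 5′ to 3′ on the gene's strand as given by RefSeq for GRCm38.p6. Capitals mark CCAAT on either strand (ATTGG on the other), the box bound by NF-Y, and TCACNCCAC, a form of the sterol element bound by SREBP. Hsd17b7 lies at chr1:169969206-169969455 on the minus strand, Hmgcs1 at chr13:119690101-119690350 on the plus strand and Cyp51 at chr5:4104698-4104947 on the minus strand.
Hsd17b7: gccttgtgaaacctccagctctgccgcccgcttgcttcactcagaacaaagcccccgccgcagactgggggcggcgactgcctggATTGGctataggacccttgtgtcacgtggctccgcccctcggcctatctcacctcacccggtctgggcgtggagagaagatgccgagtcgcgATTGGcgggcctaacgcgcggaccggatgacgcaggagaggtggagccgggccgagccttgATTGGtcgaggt
Hmgcs1: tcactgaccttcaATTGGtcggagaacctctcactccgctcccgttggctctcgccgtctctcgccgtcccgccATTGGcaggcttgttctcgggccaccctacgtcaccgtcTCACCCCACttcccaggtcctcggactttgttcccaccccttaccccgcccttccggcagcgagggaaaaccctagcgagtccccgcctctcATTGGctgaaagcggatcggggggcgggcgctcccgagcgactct
Cyp51: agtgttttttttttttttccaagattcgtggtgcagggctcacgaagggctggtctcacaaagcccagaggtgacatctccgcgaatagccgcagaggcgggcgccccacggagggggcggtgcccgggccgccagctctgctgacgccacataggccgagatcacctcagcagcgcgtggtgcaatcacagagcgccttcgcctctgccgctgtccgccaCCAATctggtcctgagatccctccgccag
Hsd17b7 held 3 CCAAT boxes in this window, Hmgcs1 3 and Cyp51 1, and of these Hmgcs1 held TCACNCCAC. Of the 14 sterol genes tested 10 had a promoter entry, and 9 of these 10 held CCAAT. That box was in 33.8% of all 32851 promoter windows of this length, and in 34.5% of genes by their first window. TCACNCCAC was in 1 of the 10 and in 1.05% of all windows. The motifs TTTGAA, TTTCCCGC and TTTGGCGC and the interferon-stimulated response element, searched on both strands, were in 0 of the 10. In that order they were in 16%, 0.895%, 0.417% and 2.98% of all windows, so 0 of 10 says little. A match is a string of letters, not a shown site of binding.

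Contractile genes fell in both cultures, more often in the female. Of 14 tested, 10 fell in the female culture (median -0.55) and Tagln, Cnn1 and Actg2 fell in the male (median -0.27). Tagln, or SM22, fell by 1.03 and 0.435, and Tpm2, a tropomyosin, fell by 1.12 in the female culture and had an estimate of -0.34 in the male. By the test of the difference, the change of 5 of the 14 was less negative in the male culture. In that direction 3.23% of all genes were called. The mean level of the list was 8.13 and 8.02 in the female and 8.31 and 8.37 in the male culture at 3 days, and 7.55, 7.44, 8.02 and 8.10 at 7 days. The highest array at 7 days, male thyroxine, stood between the 2 female arrays at 3 days.

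Matrix genes changed in both cultures. Of 19 collagen genes, 7 fell and 2 rose in the female culture. The basement membrane chains Col4a1 and Col4a2 fell by 1.27 and 1.04, and their male estimates were 0.18 and 0.225. Col6a3, a microfibril collagen, fell by 0.615 in the female culture and rose by 0.59 in the male, and Col6a1 rose by 0.825 in the male. Of 22 other matrix genes, 8 fell and 5 rose in the female culture, and 8 fell and 1 rose in the male. Among the male falls were the small proteoglycans Fmod (-0.89), Lum (-0.835) and Dcn (-0.53), the microfibril protein Mfap5 (-0.895) and the thrombospondin Thbs2 (-0.52). The female estimates of these 5 lay between -0.13 and 0.32 and did not pass. Tnc, Thbs1 and the cross-linking enzyme Lox fell in both cultures. In the female culture the elastic fibre proteins Mfap4 and Fbln1 rose by 1.025 and 0.78 and the large proteoglycan Vcan fell by 0.71. By the test of the difference, 9 of the 22 matrix genes and 6 of the 19 collagens changed differently in the cultures. The share over all genes was 6.77%.

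By the test of the difference, 6.77% of all genes changed differently in the cultures. So did 9 of 12 IGF pathway genes and 7 of 14 TGF-beta pathway genes. Of the 12 IGF pathway genes, the female culture had 4 that rose (Igf1 by 1.215, Igfbp3, Igfbp4 and Igfbp5) and 6 that fell. Igf1 is made by macrophages as well as stromal cells, and its part from either was not tested. Igfbp2, a secreted binding protein, fell in both, by 0.55 in the female and 1.265 in the male culture, where the fall was larger by the test of the difference (adjusted p = 0.00668). Pappa, the protease that frees IGF from its binding proteins, fell by 0.605 and 0.45. In the TGF-beta list Tgfb1 and its receptor Tgfbr1 rose in the female culture by 0.93 and 0.98, and Ltbp1, which anchors latent TGF-beta in matrix, fell there by 1.28. In the male culture Tgfb3 fell by 0.935 and Inhba by 0.495. Suture markers fell in the female culture for 5 of 11 (Msx2, Twist1, Zic1, Efna4 and Erf), and 1, Msx2, fell in the male. Twist1 itself had estimates of -0.415 in the female culture, which passed, and -0.34 in the male culture, which did not.

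**Figure D5:**
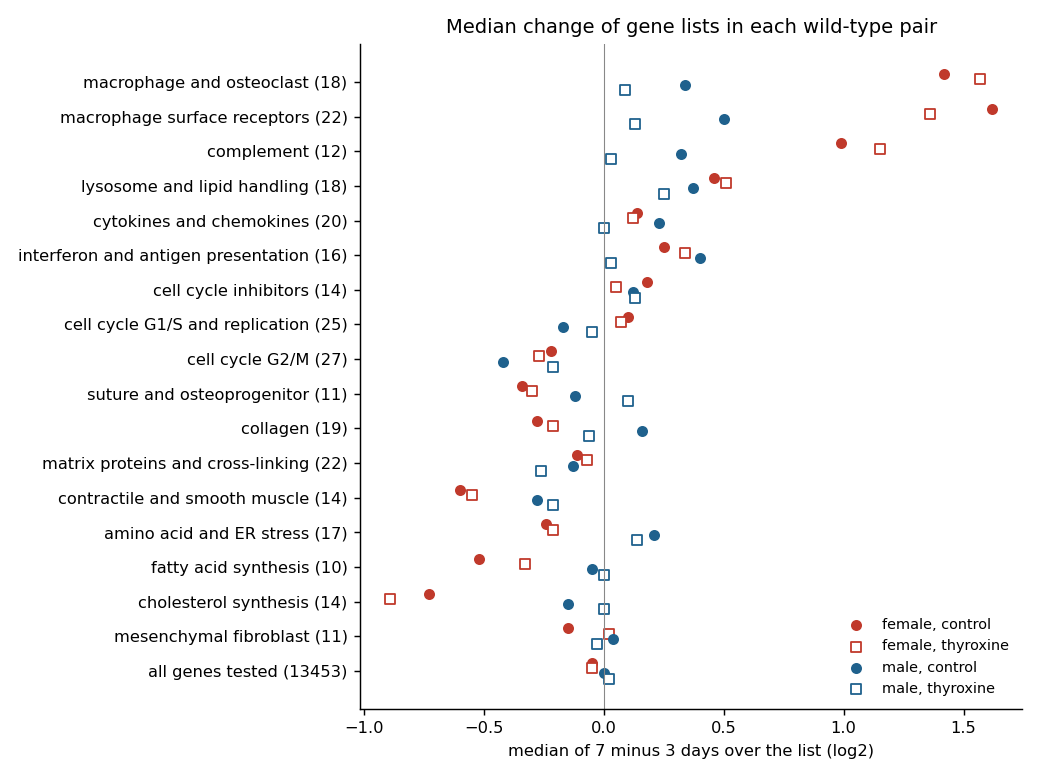
Median difference between 7 and 3 days (log2, horizontal axis) over the tested genes of each list (vertical axis, number of genes in brackets) in each wild-type pair, with colours and markers by culture and medium. The macrophage and complement medians reach 0.99 to 1.62 in the female pairs and 0.03 to 0.50 in the male pairs; contractile and G2/M medians are below 0 in all 4 pairs, and those over all genes lie between -0.05 and 0.02.

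Further lists had calls in 1 or both cultures. Of 17 genes of amino acid supply and endoplasmic reticulum stress, 7 fell and 1 rose in the female culture, and 1 rose in the male. The serine synthesis enzymes Phgdh and Psat1 fell by 0.72 and 0.62 in the female culture, with male estimates of 0.115 and 0.21. The test of the difference called 6 of the 17, beside 6.77% of all genes. Of 16 interferon and antigen presentation genes, 6 rose in the female culture, among them H2-K1 (1.05) and the proteasome subunit Psmb8 (0.855). In the male culture 4 rose, namely Ifit1 (0.83), Oasl2 (0.80), Isg15 (0.59) and H2-K1 (0.475), and Ifit1 and Isg15 had female estimates of -0.265 and -0.375. Of 11 mesenchymal fibroblast markers, Pdgfra and Cd34 rose in the male culture, by 0.955 and 0.63, and Vim and S100a4 fell in the female, by 0.325 and 0.85. Among 14 immediate early and serum response genes, 6 fell in the female culture, including Fos (-0.86) and the phosphatase Dusp1 (-1.195).

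The 16 genes with the smallest p for the difference between the cultures, 8 per direction, included stromal as well as macrophage genes. Nqo1, a quinone reductase induced by the oxidative stress factor Nrf2, was at 8.225 on average in the female culture at 3 days, then at 6.20 at 7 days, while the male culture went from 7.77 to 8.20. The pair differences were -1.90 and -2.15 against 0.39 and 0.47, so the cultures moved apart by 2.455 ± 0.15 (SE; adjusted p = 4.48e-07). Egr1, an immediate early transcription factor, changed by -0.40 and -0.59 in the female pairs and by 1.67 and 1.57 in the male pairs. Here both cultures passed on their own, in opposite directions. Grem1, a secreted BMP antagonist, fell by 1.665 in the female culture and had a male estimate of 0.275. Txnip, which binds thioredoxin and limits glucose uptake, rose by 0.92 in the female culture and fell by 0.63 in the male. The change differed for 911 genes (6.77%), higher in the male culture for 434 and lower for 477. Without the variance trend there were 84 (15 higher and 69 lower), and with all 16 arrays in the fit 533 (199 and 334). Of the 911, 468 had opposite signs in the cultures and 814 had the larger change in the female.

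Among the characterised genes called in the male culture, Ppbp, a platelet chemokine also made by myeloid cells, fell most. Ppbp changed by -1.77 and -2.06 in the male pairs and by -1.14 and -0.09 in the female. The serine protease gene Prss23 fell by 1.05 and Crispld2, a secreted protein gene, by 1.06. Cpxm1, which encodes a secreted carboxypeptidase-like protein, rose by 1.145 in the male culture and by 0.415 in the female. Car3, a carbonic anhydrase of muscle and fat, rose by 1.685, but its pairs differed, with 0.60 in control medium and 2.77 with thyroxine. The male thyroxine array at 7 days stood at 7.21 and the other wild-type arrays of that day at 3.93 to 4.34. On its other, dimmer probe set the mean over both wild-type cultures changed by 0.28, from 2.22 to 2.51, below the filter.

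Whether thyroxine altered the change with time was asked by the difference between the thyroxine and the control pairs. In limma 0 genes passed (304 at an unadjusted p under 0.05), and no adjusted p was lower than 0.997. This fit did not match the media within a culture, so differences between the cultures counted as spread. The count of 0 therefore does not show that thyroxine left the change unaltered. Read alone, neither the control-medium pairs (1307 genes at an unadjusted p under 0.05) nor the thyroxine pairs (808) gave a gene past the threshold. Among the genes with the smallest p there, Ptprz1, a receptor phosphatase, had differences of -1.31 and -0.80 in control medium and of 0.11 and 0.04 with thyroxine. Of the thyroid hormone list of 10 genes tested, 0 passed over 4 pairs. The target gene Klf9 had an estimate of 0.11 over the 4 pairs, and the medium difference passed for no member.

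The Twist1+/- arrays give the same contrast in cells that were not used in the test that called the 56 genes. They did enter the filter and the choice of probe set, and the cells came from the same litters. In the Twist1+/- cells 2608 genes passed (19.4%), 1569 higher (11.7%) and 1039 lower (7.72%). All 56 had the same sign and 52 of them passed. The share of all genes with the same sign in both genotypes was not counted. The 4 that did not were Alas1 (-0.18), Crct1 (-0.25), F2r (-0.31) and the small RNA gene AF357355 (-0.02). The medians of the macrophage list in the Twist1+/- pairs were between 1.12 and 1.71, beside 1.42 and 1.57 in the female and 0.34 and 0.09 in the male wild-type pairs. Across genes, the wild-type female pairs' differences correlated with those of the Twist1+/- pairs at 0.454 to 0.657, and the wild-type male pairs' at 0.047 to 0.306. By the test of the difference between genotypes 0 genes passed (limma; 1405 at an unadjusted p under 0.05, smallest adjusted p 0.356), which does not show that the genotypes change alike. Slc13a5, which fell most of the genes called in wild-type cells, was at -1.45 there and at -0.675 in Twist1+/- cells, with a difference of -0.78 ± 0.17 (SE; adjusted p = 0.356).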

How the data were processed

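RNA of 16 samples was hybridised to a whole-transcript Affymetrix array. Per the submitters' processing notes, the authors used RMA in Affymetrix Expression Console, and the table they deposited holds a log2 value for each probe set. For the software versions, the genome build and the annotation, nothing is given in the sources used here. RMA equalises the arrays, so a shift of all genes would not be seen, and it compresses differences near background. The number of arrays limits the precision.

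Of 41345 probe sets, 23521 had 1 gene symbol, 1814 several and 16010 none. For each of 22180 genes the brightest probe set over all arrays was used. Tests covered the 13453 genes whose mean reached 3.905 (40th percentile). Some list genes are not analysed here.

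The tool was limma 3.58.1 (R 4.3.3), with lmFit, eBayes with trend, a two-sided test, Benjamini-Hochberg over all genes tested at 0.05 and the pair as a fixed block. Pairing follows the labels: a 7-day and a 3-day array of the same culture and medium. Their deviations from the day means correlated at 0.492 to 0.506 in the 4 pairs. Effects per culture, per medium and per genotype came from fits with a separate day effect for each. The same steps were tested on simulated data. Its noise was drawn independently for each array, so it says nothing of how pairs that share a culture affect the calls. Fold values are 2 to the power of the log2 difference.

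Named genes were, among genes that passed the test and moved 1 way in 4 of 4 pairs, the 15 with the largest change in each direction; among those that passed in a culture with the same sign in both its pairs, the 8 per direction; the 8 with the smallest p in each difference and up to 4 per list. Other genes among the 56 called, and further list members, were named after their values were seen. Members, lists and rules were chosen with earlier results of these data known.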

Additional observations from a re-analysis of the deposited data

Results flagged for a closer look

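The change from 3 to 7 days differed between the female and the male wild-type culture by the test of the difference for 911 genes (434 with a higher change in the male culture, 477 with a lower). Without the variance trend there were 84 (15 and 69), and with all 16 arrays 533 (199 and 334). There was 1 culture of each, so this is a difference between cultures. The mean macrophage gene level at 3 days also differed between them (8.06 and 7.97 in the female, 9.11 and 9.05 in the male culture). So did other lists, among them collagen (8.6 and 8.52 against 7.44 and 7.45) and interferon and antigen presentation (7.55 and 7.41 against 6.34 and 6.24). Some lists stood close, such as the FGF pathway (6.66 and 6.59 against 6.66 and 6.56). The part of these starting levels in the differences was not tested.

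The male change minus the female change was positive for Nqo1 (2.455), Egr1 (2.115), Grem1 (1.94), Ptprn (1.725), Ltbp1 (1.645), Cpe (1.315), Col6a3 (1.205) and Cavin2 (1.18). Of these, Egr1 and Col6a3 passed in both cultures with opposite signs, and the other six fell in the female culture and did not pass in the male. It was negative for the macrophage genes C3ar1 (-2.005), Cd68 (-1.71), Tyrobp (-1.705), Cd14 (-1.725) and Ccl9 (-1.35), for Cyth4 (-1.74) and Hpgd (-2.135), and for Txnip (-1.55), which fell in the male culture and rose in the female.

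For 152 genes, Dixon's criterion was applied to the 4 arrays at 3 days, the 4 at 7 days and the 4 pair differences. In 10 of these 456 groups 1 value stood far from the other 3, where chance gives about 1 in 20. At 7 days the male thyroxine array was high for Car3 (7.21, the others 3.93 to 4.34) and low for Ccl3 (8.48, the others 9.09 to 9.13) and Ptx3 (7.70, the others 8.5 to 8.63). At the same time the female thyroxine array was low for Egr1 (7.67, the others 8.05 to 8.08), the male control array high for Fcgr2b (9.52, the others 9.03 to 9.08) and the female control array low for C3ar1 (9.97, the others 10.03 to 10.04). At 3 days the male thyroxine array was high for Hexa (10.02, the others 9.85 to 9.87). Of the pair differences, the male control pair was apart for Oasl2 (1.24, the others 0.33 to 0.36) and Pappa (-0.30, the others -0.62 to -0.59), and the male thyroxine pair for Ankrd1 (-0.39, the others -0.83 to -0.82).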

How the results depend on the processing

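The count of 56 genes over the 4 pairs was stable to the filter (61 without one, 54 at the 60th percentile), to centring (50) and to averaging probe sets (52). With averaging, 3 of the 30 genes named for the 4 pairs lost the call. The count moved to 150 with array weights and to 574 with all 16 arrays in the fit, which included all 56 in each case. Without the replicate block it was 0, without the variance trend 1 (2160 at an unadjusted p under 0.05), and with the culture as a random block 0 (1925). Leaving out each pair in turn gave 0 to 445. The female culture alone gave 1465, and the male culture alone (1099 at an unadjusted p under 0.05), the control medium alone (1199) and the thyroxine medium alone (603) gave 0 each. Fewer pairs leave fewer residual degrees of freedom. The female count moved to 1165 without the trend. The male count moved to 86 without the replicate block, to 0 without the trend (1352 at an unadjusted p under 0.05) and to 83 with all arrays. The count of differences between the cultures moved to 84 without the trend and to 533 with all arrays. The cause of the dependence on the trend was not tested. The 2 counts of 0, for media and genotypes, were 0 under each alternative run. No gene named for the 4 pairs, for a culture or for the difference between the cultures changed sign under any alternative run. Genes for the 4 pairs and for a culture were named only with the same sign in each of their pairs. Runs on some of those pairs could therefore not reverse a sign. The 30 genes named for the 4 pairs all lost the call without the replicate block and with the culture as a random block. All 30 kept it with array weights and with all 16 arrays.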
